A study of Mus musculus with 16 samples.

Results

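The response of 4T1 cells to CIX was examined across all expressed genes, in 8 of the 16 samples of the series. 4T1 is a metastatic cell line from a spontaneous mammary carcinoma of a BALB/c mouse, and CIX (cPLA2α inhibitor X) is a synthetic inhibitor of cytosolic phospholipase A2 alpha derived from an omega-3 polyunsaturated fatty acid. The 8 samples were chosen by their labels, with 4 samples of 4T1 cells kept for 24 h in 15 µM CIX and 4 samples kept for 24 h in vehicle (DMSO), which the study's methods call biological replicates. The other 8 samples hold 67NR cells, a non-metastatic line from the same tumor, under the same treatments, and enter only where responses of the lines are compared. All groups share the BALB/c strain and the culture medium, and 4T1 cells stand here for 1 cell line. A list of interferon and Toll-like receptor genes was set aside, and the genes described are those outside it, a few of which are also known to be induced by interferon.

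Cytosolic phospholipase A2 alpha, the product of Pla2g4a, cuts arachidonic acid from membrane phospholipids. Cyclooxygenases and lipoxygenases turn the released fatty acid into prostaglandins and leukotrienes, which are lipid messengers with roles in inflammation, growth and cell movement in tumors. The lysophospholipid that remains is itself a signalling lipid and a precursor of platelet-activating factor.

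RNA was measured as estimated counts per gene, and levels are given as CPM, counts scaled to a common library total after TMM normalization, which aligns the bulk of genes between samples. Total estimated counts ranged from 22483670 to 23875921 in the 4 vehicle samples and from 24046705 to 29450629 in the 4 CIX samples. The labels number the samples in brackets, and values are listed throughout in the order 3, 7, 11 and 15 for vehicle and 4, 8, 12 and 16 for CIX. The first principal component held 52.6% of the variance and separated the treatments, while the second held 15.2% and put vehicle sample 3 (-34.7) and CIX sample 4 (-25.5) at one end and vehicle sample 11 (31.9) and CIX sample 12 (21.0) at the other. Lists and genes in which these samples stood apart are therefore also given from a fit without samples 3 and 4. All 6 epithelial markers passed the filter on low values, with a summed level of 2510 to 2880 CPM, whereas 1 of 7 fibroblast markers, 1 of 7 leukocyte markers and 0 of 5 endothelial markers passed. Col3a1, Lum and Adgre1 were at 0 in all 8 samples, and the leukocyte marker that passed was Cd68, a lysosomal membrane protein also made outside leukocytes, with 130 to 196 CPM after CIX and 51.5 to 86.9 CPM in vehicle. A level of 3 counts, taken as the floor, corresponded to 0.102 to 0.133 CPM, which covers counting error only. In bulk RNA, fewer cells in a state and less RNA per cell cannot be told apart.

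Of 11659 genes with enough expression to be tested, 624 (5.35%) rose and 465 (3.99%) fell after CIX at the threshold used here, a Benjamini-Hochberg adjusted p-value (limma-voom) below 0.001. Together these were 1089 genes (9.34%). At a threshold of 0.05, 2558 genes (21.9%) were higher and 2424 (20.8%) lower, and in 4648 genes (39.9%) the 4 samples of a group lay wholly above those of the other. The groups did not overlap in any of the 624 and 465 called genes, so that for a called gene this adds nothing to the call. The shares above are the background against which each list of genes below is read. Lists come from textbook pathways but were chosen with earlier results of these data known, so that they are not independent of the data. Their counts are given at both thresholds because each list holds few genes. Of the genes that rose, 96 belonged to at least 1 of the 45 lists, and of those that fell, 33 did, besides the 43 that were set aside with interferon and Toll-like receptor signalling. The median log2 fold change over all genes was -0.0069. The fit was repeated without each sample in turn, and the number of these 8 fits that called a gene stands beside its values, or is left out where a called gene given by its fold change alone was called in all 8. These fits called between 269 and 975 genes, so that many single calls rest on all 8 samples. At 0.05, they called 17.5% to 22.6% of all genes higher and 16.3% to 21.9% lower, and a fit without samples 3 and 4 called 24.6% higher and 21.5% lower. Counts of list members that these fits moved by more than 1.5 times are given with the samples concerned, except that counts of 3 or fewer moved by at most 2 genes.

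**Figure D1:**
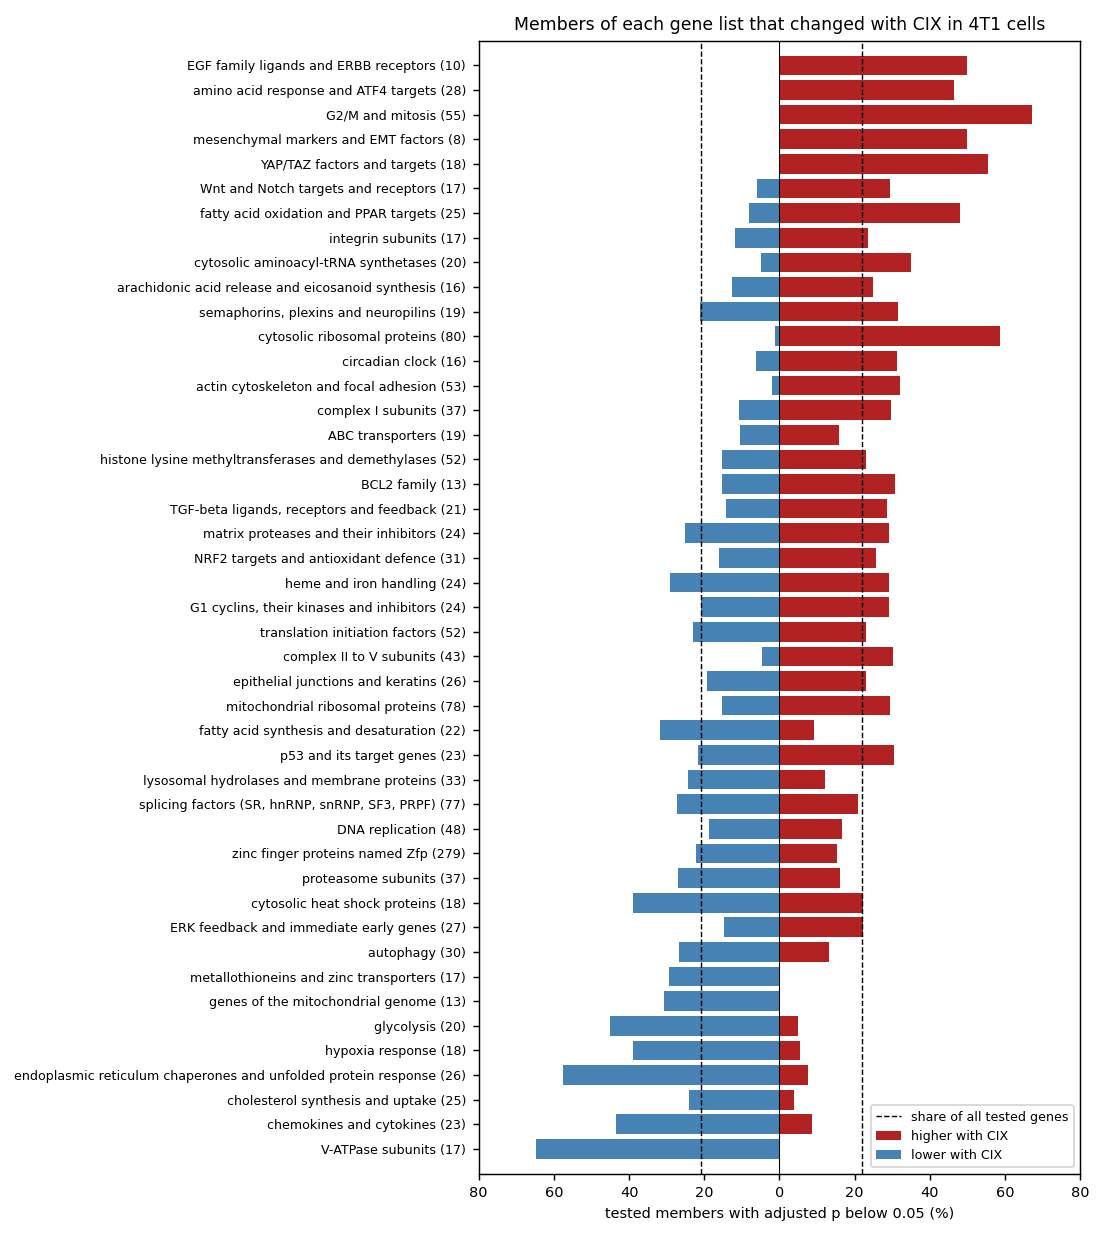
For each gene list, the horizontal axis gives the percentage of tested members with higher (right) or lower (left) expression in CIX treated than in vehicle treated 4T1 cells, at an adjusted p below 0.05, with the number of tested members in brackets, and dashed lines mark the percentages over all tested genes. G2/M genes (37 of 55 higher), cytosolic ribosomal proteins (47 of 80 higher) and V-ATPase subunits (11 of 17 lower) lie far from those lines.

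Among protein-coding genes called at 0.001, with a gene name, a mean of at least 10 CPM and groups that did not overlap, and leaving out those set aside, the 10 that rose furthest had log2 fold changes from 2.75 to 3.35. Cpox codes for coproporphyrinogen oxidase, a mitochondrial enzyme of heme synthesis (ENSMUSG00000022742, chromosome 16, 58670292 to 58717636, plus strand). It stood at 5.12, 2.75, 4.10 and 6.55 CPM with vehicle and 34.6, 32.1, 29.4 and 40.4 CPM with CIX. Every CIX sample lay above every vehicle sample, with a log2 fold change of 2.93 (standard error 0.24, adjusted p = 6.51e-05, 8 of 8 fits). Lmnb2 codes for lamin B2, a protein of the nuclear lamina (ENSMUSG00000062075, chromosome 10, 80901203 to 80918245, minus strand). Its level was 3.63, 2.53, 3.08 and 4.09 CPM with vehicle and 33.4, 21.1, 16.3 and 28.9 CPM with CIX. The groups did not overlap, and Lmnb2 rose with a log2 fold change of 2.85 (standard error 0.31, adjusted p = 1.88e-04, 7 of 8 fits). Acp6, a lysophosphatidic acid phosphatase of mitochondria, rose by 2.88 on the log2 scale, from 6.26 ± 1.34 to 47.0 ± 11.6 CPM (SD, n = 4 each). Bckdk, the kinase that holds back the breakdown of branched-chain amino acids, rose by 2.82 (3 of 8 fits), and Mettl26 by 2.76 (1 of 8 fits). Adamtsl4, a secreted protein of fibrillin microfibrils, rose by 2.75 (6 of 8 fits). Emc1, Zfp704, Katnal1 and Adgrl1 had the 4 highest fold changes of this selection, between 3.15 and 3.35, and were called in 8, 8, 7 and 0 of the 8 fits.

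The 10 that fell furthest had log2 fold changes between -6.14 and -2.47. Abcb1a, a drug efflux pump of the ABC transporter family, was at 139, 95.2, 128 and 138 CPM with vehicle and 23.2, 0.551, 0.882 and 0.788 CPM with CIX. All CIX values were lower, but CIX sample 4 lay far above the other 3, and 1 of the 8 fits called the gene. Its log2 fold change was -6.14 here (adjusted p = 4.03e-04), but edgeR did not call it (adjusted p = 0.0118), and DESeq2 gave -4.30 and no adjusted p. Csn3 codes for kappa casein, a milk protein made by mammary epithelium (ENSMUSG00000001622, chromosome 5, 87925579 to 87932665, plus strand). Its level was 30.8, 22.8, 21.1 and 27.7 CPM with vehicle and 1.08, 1.23, 2.61 and 1.93 CPM with CIX. The groups did not overlap and Csn3 fell with a log2 fold change of -3.95 (standard error 0.28, adjusted p = 4.45e-05, 8 of 8 fits). Asb2, a substrate adaptor of a ubiquitin ligase, was at 67.6, 57.1, 47.6 and 70.1 CPM with vehicle and 12.5, 5.22, 4.90 and 3.43 CPM with CIX. It was lower in each CIX sample than in any vehicle sample, with a log2 fold change of -3.38 (standard error 0.31, adjusted p = 1.01e-04, 8 of 8 fits). Kcnk2, a potassium channel opened by stretch and by polyunsaturated fatty acids, fell by 2.57 on the log2 scale, from 97.5 ± 10.6 to 16.6 ± 2.97 CPM (SD, n = 4 each). Ankrd37, a target of hypoxia-inducible factors, fell by 2.81 (1 of 8 fits) and Tmem229b by 2.51 (3 of 8 fits). Cd209c, Gbp2b, Samd9l and Ccl5 were the others, and of these Gbp2b and Samd9l are known to be induced by interferon. Reads of part of these genes could be assigned to other genes, since 23.3% of the 31-base words of Abcb1a and 19.9% of those of Cd209c occur in another gene.

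**Figure D2:**
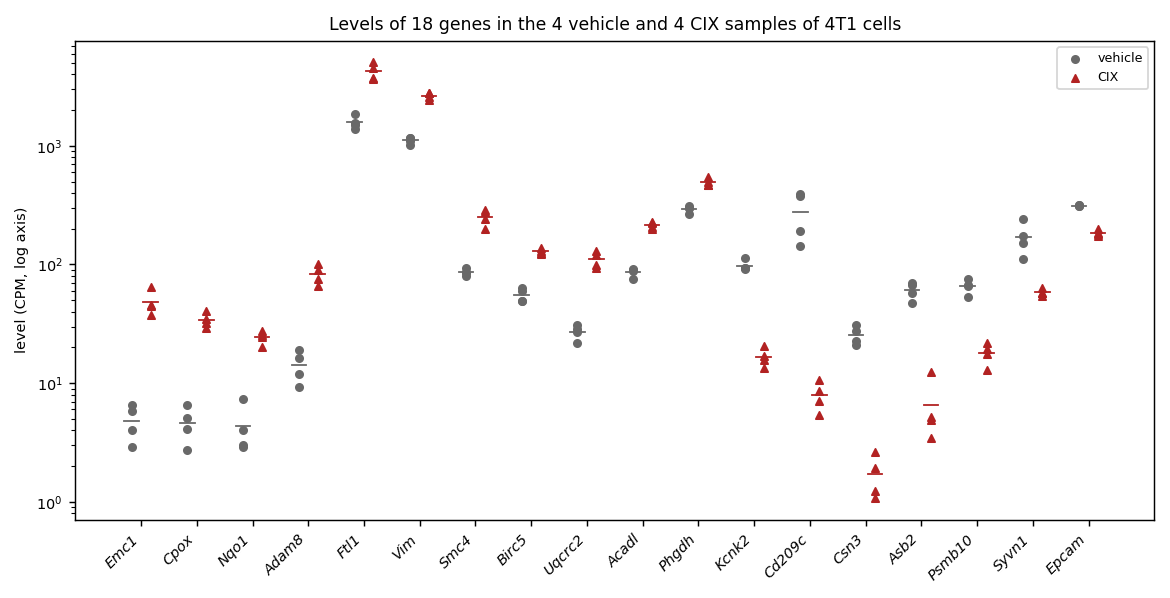
Levels of 18 of the called genes in CPM on a log axis, with a point for each of the 4 vehicle (circles) and 4 CIX treated (triangles) 4T1 samples and a horizontal line at the group mean. In each gene shown, as in every called gene, the groups do not overlap, and the changes run from a log2 fold change of -5.03 in Cd209c to 3.35 in Emc1.

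The list of genes of the G2 phase and mitosis moved together. These genes code for the kinases, condensins, kinetochore proteins and motors that take a cell through division. Of 55 tested members, 11 rose and 0 fell at 0.001, and 37 were higher and 0 lower at 0.05. Their median log2 fold change was 0.55. Relative to the vehicle mean, the median of the list was 0.26 in CIX sample 4 and 0.60, 0.77 and 0.62 in CIX samples 8, 12 and 16. Without samples 3 and 4 it was 0.70, with 43 members higher at 0.05, and leaving out each sample in turn gave 29 to 40.

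Smc4 is a core subunit of condensin, the complex that compacts mitotic chromosomes (ENSMUSG00000034349, chromosome 3, 69004738 to 69034623, plus strand). Its level was 84.2, 80.7, 86.2 and 93.0 CPM with vehicle and 200.1, 276, 241 and 289.7 CPM with CIX. All CIX samples were higher than all vehicle samples, and Smc4 rose with a log2 fold change of 1.53 (standard error 0.13, adjusted p = 6.70e-05, 8 of 8 fits). Birc5 codes for survivin, a subunit of the chromosomal passenger complex, and was at 63.9, 49.4, 59.7 and 49.4 CPM with vehicle and 131, 123, 137 and 124 CPM with CIX. The groups were apart here too, with a log2 fold change of 1.22 (standard error 0.11, adjusted p = 9.10e-05, 8 of 8 fits). Cdc25b, the phosphatase that activates the cyclin-dependent kinase at mitotic entry, had 75.6, 80.9, 81.7 and 93.2 CPM with vehicle and 176, 262, 256 and 243 CPM with CIX. It rose with a log2 fold change of 1.49 (standard error 0.14, adjusted p = 1.09e-04, 8 of 8 fits). Plk1, the polo-like kinase of mitotic entry and spindle assembly, rose by 1.20 (4 of 8 fits), and Foxm1, a transcription factor that drives G2 genes, by 0.83 (2 of 8 fits). The other members that rose were Kif2c, Bub1b, Cdc25c, Ccna2, Cenpf and Aurkb, with log2 fold changes between 0.93 and 1.38, named here after their values were seen. Kif2c was called in all 8 fits and the others in 1 to 3. The cyclin-dependent kinase Cdk1 itself had a log2 fold change of 0.25 (adjusted p = 0.0610) and the mitotic cyclin Ccnb1 one of 0.19 (adjusted p = 0.364). Cdk1 was at 186, 160.4, 163 and 150.5 CPM with vehicle and 193, 184, 213 and 192 CPM with CIX, and the lowest CIX sample lay under the highest vehicle sample.

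Promoters of cell cycle genes are known to carry CCAAT boxes and the cell cycle homology region, letters TTTGAA, which the DREAM repressor complex binds through its LIN54 subunit. TTTGAA was searched on both strands in the 250 bases before the start of each tested gene with a RefSeq promoter window (GRCm38.p6), and it was present in 18 of 48 windows of G2/M members (37.5%) as compared to 10.4% of all 11213 windows. CCAAT, searched likewise, was present in 38 of the 48 (79.2%) and in 35.9% of all. The windows of Kif2c (chr4:117178773-117179022, minus strand), a microtubule-depolymerizing kinesin of the kinetochore, and of Ccnb2 (chr9:70421555-70421804, minus strand), cyclin B2, are shown as examples with TTTGAA or its reverse complement in capitals. They run 5′ to 3′ on the strand of the gene and end at the base before its start. A match describes the letters of a window and not a bound site. These shares, and those of other letters below, were counted over all members of a list whatever their response. They describe the lists and not the response to CIX, and members with and without a match were not compared. Printed windows were picked among members that changed in the main direction of their list.
Kif2c: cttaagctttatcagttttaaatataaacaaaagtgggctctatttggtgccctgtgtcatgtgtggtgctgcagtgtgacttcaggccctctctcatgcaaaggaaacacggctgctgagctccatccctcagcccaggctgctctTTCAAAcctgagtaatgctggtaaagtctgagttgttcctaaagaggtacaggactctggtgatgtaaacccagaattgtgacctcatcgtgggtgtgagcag
Ccnb2: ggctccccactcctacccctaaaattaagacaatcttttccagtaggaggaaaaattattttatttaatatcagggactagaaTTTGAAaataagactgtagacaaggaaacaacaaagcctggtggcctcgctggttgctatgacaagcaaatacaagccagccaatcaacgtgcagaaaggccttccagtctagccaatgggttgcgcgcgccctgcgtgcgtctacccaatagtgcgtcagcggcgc

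Kif2c stood at 49.8, 45.3, 47.0 and 52.1 CPM with vehicle and 99.9, 122, 152 and 122 CPM with CIX. It rose with a log2 fold change of 1.34 (standard error 0.14, adjusted p = 1.35e-04, 8 of 8 fits) and no overlap of the groups. Ccnb2 was at 142, 117, 123 and 123 CPM with vehicle and 174, 197, 211 and 193 CPM with CIX, with a log2 fold change of 0.62 (adjusted p = 0.00111), which does not pass the threshold of 0.001.

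Genes of DNA replication moved both ways. At 0.05, 8 of 48 tested members were higher and 9 lower (16 without CIX sample 4), shares under those of all genes, whereas 11 were higher and 16 lower without samples 3 and 4, where 24.6% of all genes were higher and 21.5% lower. The median log2 fold change was -0.11 (-0.051 without vehicle sample 3, -0.054 without both samples 3 and 4). Prim1, the catalytic subunit of primase, rose by 1.37 (3 of 8 fits), from 15.0 ± 3.52 to 38.4 ± 4.46 CPM (SD, n = 4 each). Pcna, the sliding clamp of the replication fork, fell by 0.92 (2 of 8 fits), from 426 ± 55.1 to 225 ± 30.6 CPM (SD, n = 4 each), and 23.3% of its 31-base words occur in another gene. Mcm2, a subunit of the replicative helicase, had a log2 fold change of -0.53 (adjusted p = 0.268). Of 24 genes of the passage from G1 to S phase, 7 were higher (4 without vehicle sample 7, vehicle sample 11, vehicle sample 15 or CIX sample 12) and 5 lower (8 without CIX sample 4) at 0.05. The pocket proteins Rbl1 and Rbl2, which repress E2F target genes in resting cells, rose by 1.22 (1 of 8 fits) and 1.58 (1 of 8 fits). Cyclin D1 (Ccnd1) had a log2 fold change of 0.38 (adjusted p = 0.494), Cdkn1b of 0.0032 (adjusted p = 0.990) and Myc of 0.62 (adjusted p = 0.00785). Cdkn1a, the cell cycle inhibitor p21 and a target of p53, was at 135, 60.2, 51.8 and 71.5 CPM with vehicle and 43.0, 18.6, 17.5 and 19.1 CPM with CIX. Its log2 fold change of -1.71 (adjusted p = 0.00452) missed the threshold of 0.001, and without samples 3 and 4 it was -1.72 (adjusted p = 3.50e-04). The groups did not overlap, and vehicle sample 3 and CIX sample 4 were the highest of their groups.

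Of 23 tested genes of p53 and its targets, 7 were higher (30.4%) and 5 lower (21.7%) at 0.05, beside 21.9% and 20.8% of all genes. Perp, a desmosomal membrane protein induced by p53, rose by 1.34, from 42.0 ± 6.80 to 106 ± 12.1 CPM (SD, n = 4 each), and the kinase Plk2 rose by 1.47 (1 of 8 fits). Mdm2, the ubiquitin ligase of p53, had a log2 fold change of -0.54 (adjusted p = 0.00877). None of 13 apoptosis regulators passed 0.001 with limma-voom, where 4 were higher at 0.05 (1 to 2 without any 1 sample other than CIX sample 4) and 2 lower. Bcl2 had a log2 fold change of 0.95 (adjusted p = 0.00327), Mcl1 of 0.31 (adjusted p = 0.119) and Bcl2l1 of -0.13 (adjusted p = 0.402).

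The amino acid response is a program in which the transcription factor ATF4 induces enzymes that make amino acids, importers of amino acids and tRNA synthetases when amino acids are scarce or the endoplasmic reticulum (ER), mitochondria or heme supply are disturbed. Of its 28 tested members, 3 rose and 0 fell at 0.001, and 13 were higher and 0 lower at 0.05. The median log2 fold change was 0.57 with all samples and 0.76 without samples 3 and 4. CIX sample 4 stood apart in this list, with a median of 0.083 over the vehicle mean where samples 8, 12 and 16 had 0.63, 0.78 and 0.65.

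Phgdh makes the first step of serine synthesis (ENSMUSG00000053398, chromosome 3, 98313170 to 98339990, minus strand). Its level was 309, 299, 300.2 and 267 CPM with vehicle and 472, 497, 545 and 465 CPM with CIX. It was higher in every CIX sample, with a log2 fold change of 0.75 (standard error 0.087, adjusted p = 2.46e-04, 5 of 8 fits), and 55.8% of its 31-base words occur in another gene. Pycr1 codes for the mitochondrial enzyme of the last step of proline synthesis and stood at 7.43, 6.41, 6.96 and 6.96 CPM with vehicle and 15.6, 18.2, 21.9 and 25.2 CPM with CIX. The groups did not overlap, with a log2 fold change of 1.52 (standard error 0.18, adjusted p = 3.20e-04, 2 of 8 fits). Cth, the enzyme that makes cysteine from cystathionine, was at 14.0, 12.3, 10.2 and 12.5 CPM with vehicle and 26.4, 31.0, 38.5 and 40.6 CPM with CIX, and it rose by 1.47 (2 of 8 fits). Asns, asparagine synthetase, was at 127, 167, 155 and 184 CPM with vehicle and 172, 293, 402 and 369 CPM with CIX. CIX sample 4 lay among the vehicle values and the other 3 lay above them, and the log2 fold change of 0.91 (adjusted p = 0.0168) did not pass 0.001. The pseudokinase Trib3 had a log2 fold change of 0.92 (adjusted p = 0.0228) and the transcription factor Ddit3 (CHOP) one of 1.37 (adjusted p = 0.0472), and in both CIX sample 4 was the lowest CIX sample. Without samples 3 and 4 the log2 fold changes were 1.08 (adjusted p = 0.00105) for Asns, 1.16 (adjusted p = 0.00228) for Trib3 and 1.75 (adjusted p = 6.80e-04) for Ddit3. Atf4, which is controlled mostly at translation, had a log2 fold change of 0.45 (adjusted p = 0.0832).

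The letters TGATGNAA, the core of the element bound by dimers of ATF4 and C/EBP proteins, were found on either strand in 7 of 28 windows of 250 bases before the starts of these genes (25%) as compared to 1.91% of all windows. The windows of Pycr1 (chr11:120643749-120643998, minus strand) and of Vldlr (chr19:27216770-27217019, plus strand), the very low density lipoprotein receptor, are printed with these letters or their reverse complement in capitals.
Pycr1: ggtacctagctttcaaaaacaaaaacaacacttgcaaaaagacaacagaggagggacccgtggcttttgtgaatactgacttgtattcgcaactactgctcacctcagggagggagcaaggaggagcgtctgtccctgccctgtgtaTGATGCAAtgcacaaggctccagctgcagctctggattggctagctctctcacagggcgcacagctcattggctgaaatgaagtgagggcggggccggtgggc
Vldlr: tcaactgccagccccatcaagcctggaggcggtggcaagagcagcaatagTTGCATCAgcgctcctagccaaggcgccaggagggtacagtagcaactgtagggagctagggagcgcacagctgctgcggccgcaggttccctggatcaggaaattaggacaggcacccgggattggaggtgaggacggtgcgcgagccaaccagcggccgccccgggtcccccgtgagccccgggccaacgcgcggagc

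Vldlr had 6.48, 7.98, 10.9 and 10.4 CPM with vehicle and 12.0, 19.3, 20.6 and 19.4 CPM with CIX, with a log2 fold change of 1.00 (adjusted p = 0.00736), and was named for its window after its values were seen.

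Among 20 cytosolic tRNA synthetases, 3 rose at 0.001, and 7 were higher and 1 lower at 0.05. Without samples 3 and 4, or without CIX sample 4 alone, the number higher at 0.05 was 11. Vars, which charges valine tRNA, was at 390.0, 359.8, 407 and 378 CPM with vehicle and 653, 635, 676 and 651 CPM with CIX. It rose with a log2 fold change of 0.77 (standard error 0.072, adjusted p = 1.05e-04, 8 of 8 fits). Lars (leucine) rose by 1.11 (2 of 8 fits) and Yars (tyrosine) by 1.03 (1 of 8 fits), whereas Gars (glycine) had a log2 fold change of 0.43 (adjusted p = 0.0381) and Aars (alanine) of 0.47 (adjusted p = 0.115).

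More cytosolic ribosomal proteins were higher than lower, by small amounts, and 71 of 80 had a positive and 9 a negative log2 fold change. At 0.05, 47 of 80 tested members were higher and 1 was lower, and the median log2 fold change was 0.25. The number higher was 27 without CIX sample 8 and 30 without vehicle sample 15 and 31 without vehicle sample 7 or CIX sample 12. The list median lay between 0.23 and 0.29 over the vehicle mean in the 4 CIX samples. These genes took 5.00% to 5.60% of the counts in vehicle samples and 6.00% to 6.22% in CIX samples. At 0.001, 5 rose (6.25%, beside 5.35% of all genes). They were Rps26 by 0.73 (4 of 8 fits), Rpl32 by 0.72 (3 of 8 fits), Rpl4 by 0.46 (2 of 8 fits) and, named after their values were seen, Rpl22 and its paralog Rpl22l1 by 0.53 (0 of 8 fits) and 0.77 (2 of 8 fits). Ribosomal protein genes have many processed pseudogenes, and 42.0% of the 31-base words of Rpl32, 29.1% of those of Rpl4 and 19.6% of those of Rps26 occur in another gene. Of 52 translation factors, 12 were higher (7 without vehicle sample 7 or CIX sample 8) and 12 lower at 0.05. Each is a share of 23.1%, close to the background. Eif2b3, a subunit of the nucleotide exchange factor that recycles eIF2, rose by 1.54, from 8.03 ± 1.44 to 23.1 ± 1.59 CPM (SD, n = 4 each). Eif4b, which assists the cap-bound helicase, rose by 0.71 (5 of 8 fits) and Eif3f by 0.48 (0 of 8 fits). Eif1ad fell by 1.13 (4 of 8 fits), and Eif2ak2, the eIF2 kinase PKR, which is itself induced by interferon, fell by 0.98 (3 of 8 fits).

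More ER chaperones and folding enzymes were lower than higher. The unfolded protein response raises these genes when misfolded proteins collect in the ER, through the transcription factors XBP1 and ATF6. Of 26 tested members, 15 were lower and 2 higher at 0.05, with a median log2 fold change of -0.42. The number lower ranged from 10 to 16 when each sample was left out, lowest without CIX sample 8, and it was 12 without samples 3 and 4. The element CCAAT, any 9 bases and CCACG, through which ATF6 acts, was present on either strand in 8 of 22 windows before the starts of these genes (36.4%) and in 14 of all 11213 windows (0.125%), and it contains the CCAAT letters searched above. Windows of Syvn1 (chr19:6046326-6046575, plus strand) and Pdia6 (chr12:17266339-17266588, plus strand) are printed with the element in capitals.
Syvn1: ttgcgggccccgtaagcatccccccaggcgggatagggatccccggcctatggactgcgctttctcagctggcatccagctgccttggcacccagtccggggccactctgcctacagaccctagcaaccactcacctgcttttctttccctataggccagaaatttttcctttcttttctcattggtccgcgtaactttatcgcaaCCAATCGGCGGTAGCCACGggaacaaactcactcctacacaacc
Pdia6: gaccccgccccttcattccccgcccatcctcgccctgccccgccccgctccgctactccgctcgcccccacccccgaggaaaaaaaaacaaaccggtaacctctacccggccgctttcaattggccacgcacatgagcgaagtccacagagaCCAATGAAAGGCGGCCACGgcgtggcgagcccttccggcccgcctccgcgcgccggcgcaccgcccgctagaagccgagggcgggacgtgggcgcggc

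Syvn1 is the ubiquitin ligase HRD1 of ER-associated degradation. Its level was 244, 151, 111 and 175 CPM with vehicle and 63.5, 58.0, 57.8 and 54.0 CPM with CIX. It was lower in each CIX sample than in any vehicle sample and fell with a log2 fold change of -1.49 (standard error 0.22, adjusted p = 6.98e-04, 2 of 8 fits). Pdia6, a protein disulfide isomerase, was at 629, 504, 450.1 and 459 CPM with vehicle and 420.0, 371, 366 and 369 CPM with CIX, with a log2 fold change of -0.41 (adjusted p = 0.0186). Hspa5, the main ER chaperone BiP, had 2692, 1847, 1537 and 1761 CPM with vehicle and 1352, 1251, 1822 and 1414 CPM with CIX, and its log2 fold change of -0.40 (adjusted p = 0.0922) did not pass either threshold. Xbp1 had a log2 fold change of -0.27 (adjusted p = 0.204).

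Of 18 cytosolic heat shock genes tested, 4 were higher (22.2%) and 7 lower (38.9%) at 0.05, beside 21.9% and 20.8% of all genes. Hspb8, a small heat shock protein that works with BAG3, was at 41.5, 32.5, 34.8 and 37.6 CPM with vehicle and 91.5, 94.7, 104 and 96.3 CPM with CIX. Its rise had a log2 fold change of 1.40 (standard error 0.10, adjusted p = 4.54e-05, 8 of 8 fits). Dnaja1, a co-chaperone of HSP70, was at 161, 168, 166 and 154 CPM with vehicle and 84.2, 73.9, 77.6 and 70.0 CPM with CIX, and it fell with a log2 fold change of -1.09 (standard error 0.089, adjusted p = 6.70e-05, 8 of 8 fits). Neither pair of groups overlapped. Hsp90ab1 rose by 0.54 (2 of 8 fits), Hspa8, the constitutive HSP70, had a log2 fold change of -0.044 (adjusted p = 0.838), and the inducible Hspa1b had -0.75 (adjusted p = 0.00583), with 68.0% of its words found in another gene.

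Subunits of the V-ATPase, the proton pump that acidifies lysosomes and endosomes, leaned downwards, and 16 of 17 had a negative log2 fold change. None of the tested subunits passed 0.001 with limma-voom, but 11 were lower and 0 higher at 0.05, and the median log2 fold change was -0.56. The list median was between -0.54 and -0.42 in the 4 CIX samples. The count stayed between 10 and 11 when each sample was left out. Atp6v1a, the catalytic subunit, was at 351, 399, 412 and 344 CPM with vehicle and 228, 281, 262 and 218 CPM with CIX. The CIX values were all lower, with a log2 fold change of -0.61 (adjusted p = 0.00199), and the membrane subunit Atp6v0c had -0.11 (adjusted p = 0.422). Of 33 lysosomal hydrolases and membrane proteins, 8 were lower at 0.05 (3 to 5 without any 1 sample other than vehicle sample 3) and 4 higher (2 without CIX sample 8). Ctsd had a log2 fold change of -0.15 (adjusted p = 0.172), Lamp1 of -0.21 (adjusted p = 0.0637) and Ctsl of 0.26 (adjusted p = 0.0659). In 30 autophagy genes, 8 were lower (5 without vehicle sample 7, CIX sample 8 or CIX sample 16) and 4 higher (2 without vehicle sample 7, vehicle sample 15, CIX sample 8 or CIX sample 12). The receptor Sqstm1 (p62) had a log2 fold change of 0.41 (adjusted p = 0.0320), Map1lc3b of -0.24 (adjusted p = 0.0398) and Nbr1 of -0.74 (adjusted p = 0.154). Among 37 proteasome subunits, 10 were lower (5 without vehicle sample 7 or CIX sample 8 and 6 without CIX sample 16, and 6 without samples 3 and 4) and 6 higher. Psmb10, a catalytic subunit of the immunoproteasome and a known interferon target, fell by 1.88, from 65.5 ± 9.48 to 18.0 ± 3.83 CPM (SD, n = 4 each). Psmd3, a subunit of the regulatory particle, rose by 0.92 (3 of 8 fits).

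Enzymes of fatty acid oxidation, which shorten fatty acids in mitochondria to acetyl-CoA, were listed together with PPAR targets, and more members were higher than lower. Of 34 members, 25 were tested, and Angptl4, Cd36, Pdk4, Ehhadh and Decr1 were among those below the filter. Of the 25 tested genes, 5 rose and 0 fell at 0.001, and 12 were higher and 2 lower at 0.05. Acadl, long-chain acyl-CoA dehydrogenase (ENSMUSG00000026003, chromosome 1, 66830839 to 66863277, minus strand), was at 91.8, 75.9, 87.6 and 89.4 CPM with vehicle and 206, 223, 201 and 230.2 CPM with CIX. The CIX samples were all higher, and Acadl rose with a log2 fold change of 1.32 (standard error 0.10, adjusted p = 4.45e-05, 8 of 8 fits). Acadvl, its very-long-chain counterpart, was at 27.6, 25.2, 15.7 and 20.4 CPM with vehicle and 72.0, 63.9, 52.8 and 65.5 CPM with CIX, and it rose with a log2 fold change of 1.54 (standard error 0.18, adjusted p = 2.61e-04, 4 of 8 fits). Ech1, an enoyl-CoA isomerase for unsaturated fatty acids, had 32.6, 34.2, 34.0 and 33.9 CPM with vehicle and 63.3, 68.5, 66.7 and 76.3 CPM with CIX. Ech1 rose with a log2 fold change of 1.03 (standard error 0.10, adjusted p = 1.06e-04, 8 of 8 fits). Cpt1a, the rate-limiting carnitine transferase of fatty acid entry into mitochondria, rose by 0.84 (1 of 8 fits), and Hadha, the alpha subunit of the trifunctional protein, named after its values were seen, by 0.70 (1 of 8 fits). Plin2, a lipid droplet protein induced by fatty acids through PPARs, had a log2 fold change of 0.033 (adjusted p = 0.874).

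Of 25 genes of cholesterol synthesis and uptake, 0 rose and 0 fell at 0.001 with limma-voom, and 6 were lower and 1 higher at 0.05, with a median log2 fold change of -0.49 (-0.28 without vehicle sample 3). The list median was 0.49, -0.088, -0.33 and -0.10 in the vehicle samples and 0.11, -0.64, -0.74 and -0.62 in the CIX samples, so that samples 3 and 4 were the highest of their groups. Without samples 3 and 4 the number lower at 0.05 was 17 and the number higher 3, and the number lower was 18 without CIX sample 4. Of all genes, 21.5% were lower without samples 3 and 4 and 21.9% without CIX sample 4. Fdps, which makes farnesyl diphosphate, was at 721, 462, 478 and 479 CPM with vehicle and 818, 538, 532 and 565 CPM with CIX. Vehicle sample 3 and CIX sample 4 were the highest of their groups, and the log2 fold change was 0.20 (adjusted p = 0.403), or 0.21 (adjusted p = 0.0332) without samples 3 and 4. Srebf2, the transcription factor of the pathway, had a log2 fold change of 0.20 (adjusted p = 0.238).

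Among 22 genes of fatty acid synthesis and desaturation, 7 were lower and 2 higher at 0.05. Elovl7, an elongase of saturated fatty acids, was at 9.42, 8.37, 8.37 and 10.1 CPM with vehicle and 23.8, 23.4, 22.1 and 33.7 CPM with CIX, and it rose with a log2 fold change of 1.48 (standard error 0.17, adjusted p = 2.69e-04, 4 of 8 fits). Fads1, the delta-5 desaturase that makes arachidonic acid, had 218, 223, 202 and 214 CPM with vehicle and 158, 168, 159.6 and 153 CPM with CIX. Its CIX values were lower, with a log2 fold change of -0.42 (adjusted p = 0.00238) that misses 0.001. Scd1 had -0.34 (adjusted p = 0.0212) and Fasn 0.20 (adjusted p = 0.536). In the 16 eicosanoid genes, 4 were higher and 2 lower at 0.05. Lta4h, the hydrolase that makes leukotriene B4, was at 44.7, 44.8, 43.4 and 45.1 CPM with vehicle and 102, 98.4, 104 and 123 CPM with CIX. The groups did not overlap, and Lta4h rose with a log2 fold change of 1.26 (standard error 0.10, adjusted p = 6.16e-05, 8 of 8 fits). Ptgs2, the inducible cyclooxygenase COX-2, was at 472, 400.0, 396 and 452 CPM with vehicle and 541, 626, 841 and 695 CPM with CIX. Its CIX values were all higher, with a log2 fold change of 0.64 (adjusted p = 0.00483) that does not pass 0.001. Ptges, prostaglandin E synthase, had a log2 fold change of -0.39 (adjusted p = 0.592), and Pla2g4a, which codes for the target of CIX, had 0.61 (adjusted p = 0.131).

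Of 37 complex I subunits, 11 were higher and 4 lower (2 without CIX sample 8 or CIX sample 16) at 0.05, and of 43 subunits of complexes II to V, 13 and 2. The shares higher were 29.7% and 30.2%, beside 21.9% of all genes. The median log2 fold change was 0.20 in complex I and 0.063 in the others, of which 27 of 43 were positive, and without samples 3 and 4 the count higher in complex I was 19, where 24.6% of all genes were higher, and the median of the others was 0.13. Uqcrc2, a core subunit of complex III (ENSMUSG00000030884, chromosome 7, 120635176 to 120659524, plus strand), was at 30.9, 21.9, 27.2 and 28.5 CPM with vehicle and 121, 99.3, 93.4 and 129 CPM with CIX. It was higher in every CIX sample and rose with a log2 fold change of 2.02 (standard error 0.15, adjusted p = 4.55e-05, 8 of 8 fits). Ndufs4 and Ndufab1 of complex I rose by 1.07 (3 of 8 fits) and 1.31 (2 of 8 fits). Atp5d, a subunit of ATP synthase, rose by 1.16 (2 of 8 fits), Cox7a2l, a supercomplex assembly factor, by 0.94 (4 of 8 fits), and Uqcr10, named after its values were seen, by 1.27 (1 of 8 fits). Of 78 mitochondrial ribosomal proteins, 23 were higher and 12 lower (7 without vehicle sample 3 or CIX sample 8) at 0.05, and 8 and 4 at 0.001. The shares at 0.05 were 29.5% and 15.4%, beside 21.9% and 20.8% of all genes. Mrps31 was at 7.93, 6.37, 8.97 and 8.10 CPM with vehicle and 24.5, 33.0, 33.5 and 30.7 CPM with CIX, and it rose with a log2 fold change of 1.95 (standard error 0.17, adjusted p = 7.00e-05, 8 of 8 fits). Mrpl24 rose by 1.71 and Mrps5 by 1.27, whereas Mrpl49 fell by 1.05 (1 of 8 fits), Mrps12 by 0.97 (1 of 8 fits) and Mrpl45 by 0.88 (4 of 8 fits). Of the 13 genes of the mitochondrial genome, 0 were higher and 4 lower at 0.05 (2 without CIX sample 12), and with the trend with GC content removed from each sample 1 was higher and 0 lower. Their median log2 fold change was -0.31 (-0.46 without CIX sample 4 and -0.13 without CIX sample 12), or -0.059 with that trend removed, and they took 0.498% to 0.926% of the counts in vehicle and 0.435% to 0.812% in CIX samples. The cytochrome oxidase subunits mt-Co1 and mt-Co2 had log2 fold changes of 0.54 (adjusted p = 0.0932) and 0.11 (adjusted p = 0.769). Their reads could be assigned to other genes, since 63.9% of the 31-base words of mt-Co1 and 100% of those of mt-Co2 occur in another gene.

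More genes of glycolysis and the hypoxia response were lower than higher. Hypoxia-inducible factors raise glucose uptake, glycolytic enzymes and angiogenic factors when oxygen is low. Of 20 glycolytic genes, 9 were lower and 1 higher at 0.05, with a median log2 fold change of -0.37, and none passed 0.001 with limma-voom. Of 18 hypoxia genes, 7 were lower and 1 higher, with a median of -0.42 (-0.76 without vehicle sample 3 and -0.27 without vehicle sample 11). By sample, the median of the hypoxia list was -0.58 in vehicle sample 3, below all 4 CIX samples (-0.47 to -0.22), and 0.12, 0.25 and 0.082 in the other vehicle samples. Without samples 3 and 4 the numbers lower were 13 and 10, and the medians -0.51 and -0.64, where 21.5% of all genes were lower. Ldha, lactate dehydrogenase A, was at 1548, 1886, 2198 and 1705 CPM with vehicle and 1183, 659.9, 813 and 813 CPM with CIX. The groups did not overlap, and the log2 fold change was -1.10 (adjusted p = 0.001002), just outside the threshold of 0.001. Hk2, hexokinase 2, had -0.54 (adjusted p = 0.00430), the glucose transporter Slc2a1 -0.28 (adjusted p = 0.0419), Aldoa -0.37 (adjusted p = 0.0776) and Pkm 0.052 (adjusted p = 0.682). Ankrd37 (ENSMUSG00000050914, chromosome 8, 45996902 to 46005707, minus strand) was the member that passed, at 14.6, 31.4, 28.7 and 26.1 CPM with vehicle and 5.80, 1.61, 4.23 and 3.39 CPM with CIX. It fell with a log2 fold change of -2.81 (standard error 0.39, adjusted p = 6.05e-04, 1 of 8 fits). Vegfa, the endothelial growth factor, had a log2 fold change of 0.28 (adjusted p = 0.228) and Ndrg1 of 0.15 (adjusted p = 0.740). ACGTG, the core letters bound by hypoxia-inducible factors, were found on either strand in 13 of 22 windows of hypoxia genes (59.1%) and in 21.8% of all windows. The window of Ankrd37 (chr8:45999851-46000100, minus strand) is printed with ACGTG or its reverse complement in capitals.
Ankrd37: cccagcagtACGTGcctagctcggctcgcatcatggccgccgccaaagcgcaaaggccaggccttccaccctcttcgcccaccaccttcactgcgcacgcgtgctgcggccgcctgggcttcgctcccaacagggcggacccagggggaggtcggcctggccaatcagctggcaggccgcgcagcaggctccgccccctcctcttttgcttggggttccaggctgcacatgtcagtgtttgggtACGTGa

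NRF2 targets, which guard against oxidants, were close to the background, with 8 of 31 higher (5 without vehicle sample 7, CIX sample 8 or CIX sample 16) and 5 lower at 0.05. Nqo1, a quinone reductase (ENSMUSG00000003849, chromosome 8, 107388225 to 107403206, minus strand), was at 7.35, 2.88, 3.03 and 4.05 CPM with vehicle and 27.6, 20.1, 24.3 and 25.6 CPM with CIX. All CIX values were higher, and it rose with a log2 fold change of 2.58 (standard error 0.26, adjusted p = 1.34e-04, 8 of 8 fits). Ftl1, the ferritin light chain, had 1380.0, 1555, 1862 and 1502 CPM with vehicle and 3708, 5039, 4546 and 3689 CPM with CIX. It rose with a log2 fold change of 1.43 (standard error 0.13, adjusted p = 8.81e-05, 8 of 8 fits), and 57.7% of its 31-base words occur in another gene. Taldo1, an enzyme of the pentose phosphate pathway, rose by 0.76 (2 of 8 fits), and Gpx1, a selenium-dependent peroxidase, fell by 0.87 (1 of 8 fits). Gclm had a log2 fold change of 0.49 (adjusted p = 0.0662). Hmox1, heme oxygenase 1, was at 60.7, 103, 102 and 79.7 CPM with vehicle and 35.6, 44.4, 51.5 and 35.4 CPM with CIX. Its log2 fold change of -1.03 (adjusted p = 0.00288) did not pass 0.001. Of 24 iron and heme genes, 7 were higher and 7 lower at 0.05. Besides Cpox and Ftl1, the mitochondrial iron importer Slc25a28 rose by 1.04 (3 of 8 fits). Cp, ceruloplasmin, a copper-bearing ferroxidase, was at 301, 319, 267 and 325 CPM with vehicle and 156, 132, 73.7 and 94.2 CPM with CIX, and it fell with a log2 fold change of -1.47 (standard error 0.21, adjusted p = 6.04e-04, 1 of 8 fits). The transferrin receptor Tfrc had -0.84 (adjusted p = 0.0437). Of 17 metallothioneins and zinc transporters, 5 were lower (3 without CIX sample 12) and 0 higher, and Slc39a6 fell by 0.66 (0 of 8 fits). Among 19 ABC transporters, Abcb1a fell as given above, whereas Abcd4, which moves vitamin B12 out of lysosomes, was at 10.1, 7.15, 7.09 and 8.35 CPM with vehicle and 46.7, 41.5, 32.3 and 40.6 CPM with CIX, and it rose with a log2 fold change of 2.30 (standard error 0.17, adjusted p = 4.90e-05, 8 of 8 fits).

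Of 21 mesenchymal genes, 8 had enough expression to be tested, and Zeb1, Snai2, Cdh2, Col1a1 and Acta2 were among those below the filter. Of the 8 tested, 3 rose at 0.001, and 4 were higher and 0 lower at 0.05. Vim, vimentin, the intermediate filament of mesenchymal cells (ENSMUSG00000026728, chromosome 2, 13573927 to 13582826, plus strand), was at 1166, 1020.2, 1096 and 1167 CPM with vehicle and 2423, 2565, 2768 and 2772 CPM with CIX. The groups were far apart relative to their spread, with a log2 fold change of 1.24 (standard error 0.077, adjusted p = 4.25e-05, 8 of 8 fits). Sparc, a matrix glycoprotein, had 103, 109.7, 123 and 92.1 CPM with vehicle and 213, 237, 229 and 199 CPM with CIX, and it rose with a log2 fold change of 1.04 (standard error 0.11, adjusted p = 1.53e-04, 7 of 8 fits). Twist1, a transcription factor of epithelial to mesenchymal transition, rose by 0.92 (1 of 8 fits), from 8.41 ± 0.320 to 16.0 ± 0.985 CPM (SD, n = 4 each). The fibroblast markers Col3a1 and Lum were at 0, and Pdgfra ranged from 48.1 to 58.4 CPM with vehicle and from 47.2 to 54 CPM with CIX. Snai1 had a log2 fold change of 0.39 (adjusted p = 0.0602) and fibronectin (Fn1) of 0.40 (adjusted p = 0.0446). Epithelial genes were close to the background, with 6 of 26 higher (23.1%) and 5 lower (19.2%) at 0.05, beside 21.9% and 20.8% of all genes. Epcam, an epithelial adhesion molecule, was at 317, 312, 309 and 317 CPM with vehicle and 182, 173, 180.1 and 199 CPM with CIX. It fell with a log2 fold change of -0.78 (standard error 0.077, adjusted p = 1.27e-04, 8 of 8 fits). Cdh1, E-cadherin, had a log2 fold change of -0.29 (adjusted p = 0.0592) and the keratin Krt8 of 0.43 (adjusted p = 0.0533), while Esrp1, an epithelial splicing factor, rose by 0.76 (2 of 8 fits), Dsg2, a desmosomal cadherin, by 1.17 (1 of 8 fits) and Tjp3, a tight junction protein, by 1.59 (1 of 8 fits).

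Of 53 cytoskeletal genes, 17 were higher and 1 lower at 0.05, as compared to 21.9% and 20.8% of all genes. Enah, an actin elongation factor at the leading edge, was at 66.9, 60.5, 66.3 and 69.3 CPM with vehicle and 116, 139, 124 and 144 CPM with CIX. Its values were apart, with a log2 fold change of 0.99 (standard error 0.10, adjusted p = 1.55e-04, 6 of 8 fits). Vcl, vinculin, which links adhesions to actin, rose by 0.77 (4 of 8 fits), Myh9, the nonmuscle myosin heavy chain, by 0.84 (1 of 8 fits) and the GTPase Rhoa by 0.50 (0 of 8 fits). Rac1 had a log2 fold change of 0.21 (adjusted p = 0.0962), Ptk2 (focal adhesion kinase) of 0.20 (adjusted p = 0.104) and fascin (Fscn1) of -0.022 (adjusted p = 0.876). Of 17 integrins, 4 were higher and 2 lower (23.5% and 11.8%). Itga5, a fibronectin receptor subunit, was at 42.7, 38.7, 44.1 and 49.6 CPM with vehicle and 87.2, 82.6, 79.6 and 85.1 CPM with CIX, and it rose with a log2 fold change of 0.94 (standard error 0.10, adjusted p = 1.79e-04, 5 of 8 fits). Itgb7, a subunit known from leukocytes, had 13.1, 10.4, 15.8 and 16.7 CPM with vehicle and 46.9, 50.2, 37.3 and 38.4 CPM with CIX, and it rose with a log2 fold change of 1.63 (standard error 0.17, adjusted p = 1.76e-04, 8 of 8 fits). Ptprc, the defining leukocyte marker, was at 0.95 to 1.43 CPM with vehicle and 0.127 to 0.917 CPM with CIX. In 24 proteases and inhibitors, 7 were higher and 6 lower (3 without vehicle sample 7), and the share higher was 29.2%. Adam8, a membrane metalloprotease (ENSMUSG00000025473, chromosome 7, 139978932 to 139992562, minus strand), was at 9.21, 11.9, 16.4 and 18.9 CPM with vehicle and 65.7, 89.6, 76.0 and 100.3 CPM with CIX. The lowest CIX sample lay above the highest vehicle sample by a wide margin, with a log2 fold change of 2.59 (standard error 0.23, adjusted p = 7.87e-05, 8 of 8 fits). Timp2, a metalloprotease inhibitor, rose by 0.54 (0 of 8 fits), whereas urokinase (Plau) had a log2 fold change of -0.59 (adjusted p = 0.00373), Mmp9 of -0.58 (adjusted p = 0.347) and Timp1 of 0.67 (adjusted p = 0.0944). Of 19 semaphorin, plexin and neuropilin genes, 6 were higher and 4 lower, where the receptor Plxnd1 rose by 1.57 (2 of 8 fits) and Plxnb1 fell by 1.18 (3 of 8 fits).

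In growth factor signalling, 5 of 10 EGF family ligands and receptors were higher and 0 lower at 0.05. Erbb2, a receptor tyrosine kinase, was at 34.2, 36.6, 38.2 and 43.3 CPM with vehicle and 72.8, 57.6, 60.8 and 68.0 CPM with CIX, and it rose with a log2 fold change of 0.77 (standard error 0.12, adjusted p = 9.44e-04, 0 of 8 fits). Hbegf, a ligand, had 60.5, 38.3, 30.5 and 43.9 CPM with vehicle and 109.5, 76.1, 75.7 and 88.8 CPM with CIX, with a log2 fold change of 1.04 (adjusted p = 0.00332). The receptor Egfr had 0.47 (adjusted p = 0.393) and the ligand Areg -0.17 (adjusted p = 0.710). Of 27 genes of ERK feedback and the immediate early response, 6 were higher and 4 lower (1 without vehicle sample 15, CIX sample 8 or CIX sample 16 and 2 without vehicle sample 3 and 9 without CIX sample 4). Without samples 3 and 4 the numbers were 7 and 10, where 24.6% of all genes were higher and 21.5% lower. Dusp1, a phosphatase of stress kinases, rose by 0.91 (1 of 8 fits), while Dusp6 had a log2 fold change of -0.58 (adjusted p = 0.245), Fosl1 of -0.41 (adjusted p = 0.238) and Spry2 of -0.044 (adjusted p = 0.856). Targets of the coactivators YAP and TAZ were higher in 10 of 18 and lower in 0 at 0.05, and the number higher was 4 without vehicle sample 7 and 5 without CIX sample 8 and 6 without CIX sample 12 or CIX sample 16. Axl, a receptor tyrosine kinase, was at 656, 459, 422 and 523 CPM with vehicle and 1068, 960.0, 885 and 866 CPM with CIX, and it rose with a log2 fold change of 0.89 (standard error 0.14, adjusted p = 9.26e-04, 1 of 8 fits). Ccn2 had a log2 fold change of 1.16 (adjusted p = 0.00236) and Ccn1 of 0.092 (adjusted p = 0.682). Among 21 genes of TGF-beta signalling, 6 were higher and 3 lower. Tgfbr3, the co-receptor betaglycan, was at 14.4, 14.1, 11.3 and 17.8 CPM with vehicle and 45.9, 50.3, 44.1 and 44.1 CPM with CIX, and it rose with a log2 fold change of 1.69 (standard error 0.14, adjusted p = 6.70e-05, 8 of 8 fits). Id2, an inhibitor of helix-loop-helix factors, fell by 1.49 (2 of 8 fits), whereas Id1 had -0.14 (adjusted p = 0.645), Smad7 -0.025 (adjusted p = 0.934) and Tgfb1 0.39 (adjusted p = 0.112). Of 17 Wnt and Notch genes, 5 were higher (2 without vehicle sample 7 and 3 without vehicle sample 11, CIX sample 4 or CIX sample 8), 1 lower and none passed 0.001 with limma-voom, with 0.58 (adjusted p = 0.216) for Notch1, -0.48 (adjusted p = 0.173) for Hes1 and -0.045 (adjusted p = 0.764) for Lrp5.

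Of 16 circadian clock genes, 5 were higher and 1 lower at 0.05. Per2, a repressor of the clock, had 21.0, 10.5, 0.256 and 13.9 CPM with vehicle and 52.7, 42.1, 59.3 and 127 CPM with CIX. All CIX samples lay above all vehicle samples, but vehicle sample 11 was far below the other vehicle samples, and the log2 fold change of 3.55 (adjusted p = 0.0190) did not pass 0.001. Dbp, an output factor of the clock, was at 1.40, 2.01, 3.38 and 2.58 CPM with vehicle and 6.76, 20.3, 27.8 and 18.5 CPM with CIX, with a log2 fold change of 2.87 (adjusted p = 0.00284). Its groups did not overlap, and CIX sample 4 was the lowest of the CIX samples. Nr1d1 had 0.67 (adjusted p = 0.136).

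Chemokines and cytokines other than those set aside were lower in 10 of 23 and higher in 2 at 0.05, with 4 called. The median log2 fold change was -0.55 (-0.31 without vehicle sample 3 and -0.87 without CIX sample 4). By sample, the list median was 0.57 in vehicle sample 3 and -0.062 in CIX sample 4, as compared to -0.87, -0.87 and -0.51 in the other CIX samples. Il23a, a subunit of interleukin 23, was at 149.8, 114, 103 and 106 CPM with vehicle and 56.6, 43.7, 46.9 and 44.7 CPM with CIX. It was lower in all CIX samples and fell with a log2 fold change of -1.29 (standard error 0.14, adjusted p = 2.11e-04, 5 of 8 fits). Cxcl3, a neutrophil attractant, had 40.4, 64.7, 73.0 and 46.6 CPM with vehicle and 19.3, 22.6, 20.6 and 15.3 CPM with CIX, and it fell with a log2 fold change of -1.50 (standard error 0.21, adjusted p = 6.58e-04, 1 of 8 fits). Ccl5, which is also induced by interferon, fell by 2.47 (1 of 8 fits), from 34.2 ± 14.3 to 5.84 ± 1.21 CPM (SD, n = 4 each), and Ccl25, named after its values were seen, by 1.21 (1 of 8 fits). Cxcl1 had a log2 fold change of -0.050 (adjusted p = 0.930) and Csf1 of 0.46 (adjusted p = 0.0217).

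**Figure D3:**
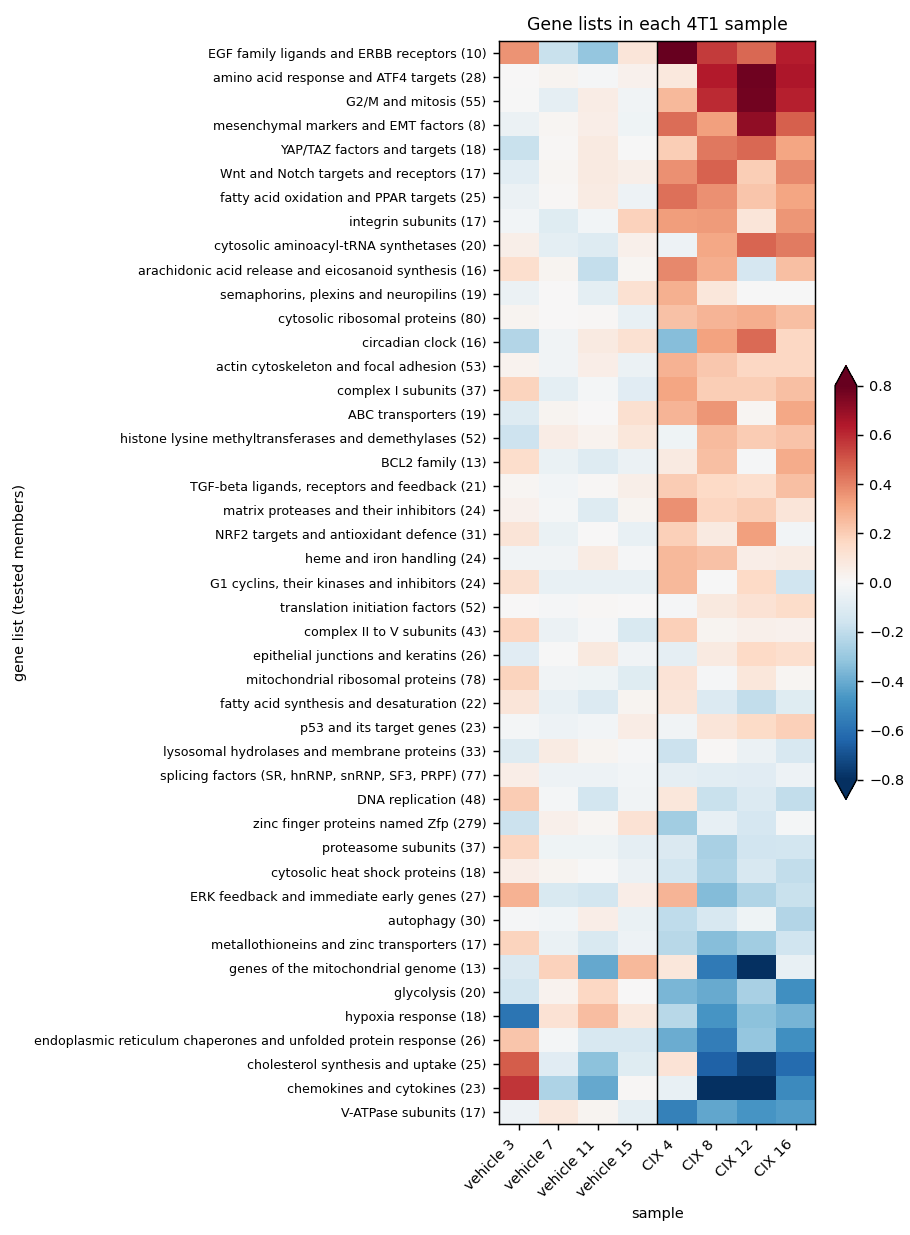
Each row is 1 of 45 gene lists and each column 1 of the 8 samples of 4T1 cells, and the color gives the median over the list's members of log2 CPM minus the mean of the 4 vehicle samples, from blue (lower) to red (higher). Vehicle sample 3 (0.49 and 0.57) and CIX sample 4 (0.11 and -0.062) are the highest of their groups in the cholesterol and chemokine lists, and CIX sample 4 (0.083) is the lowest CIX sample in the amino acid list.

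For lists of RNA and chromatin proteins, shares are given beside 21.9% of all genes higher and 20.8% lower at 0.05. Of 77 splicing factors, 16 were higher (20.8%) and 21 lower (27.3%), which is close to the background. Snrpa1, the U2 snRNP protein A′, was at 13.8, 7.50, 8.20 and 8.47 CPM with vehicle and 50.4, 38.5, 39.6 and 48.0 CPM with CIX. Snrpa1 rose with a log2 fold change of 2.25 (standard error 0.19, adjusted p = 7.36e-05, 8 of 8 fits), and Prpf40b rose by 1.27 (6 of 8 fits). Srsf6 fell by 0.99 (2 of 8 fits) and Tra2a by 0.80 (3 of 8 fits), both of which are regulators of exon choice. Of 279 zinc finger genes of the Zfp series, 43 were higher (15.4%) and 62 lower (22.2%) at 0.05, and 10 and 7 at 0.001. Besides Zfp704, the first by adjusted p were Zfp362 (1.40, 1 of 8 fits) and Zfp637 (1.80, 1 of 8 fits) among those that rose and Zfp428 (-1.61, 6 of 8 fits), Zfp296 (-1.49, 4 of 8 fits) and Zfp668 (-0.99, 2 of 8 fits) among those that fell. Of 52 histone methyltransferases and demethylases, 12 were higher (23.1%) and 8 lower (15.4%) at 0.05. The number lower was 4 without vehicle sample 7, 5 without vehicle sample 15 and 13 without vehicle sample 3. Ehmt2 (G9a), which methylates histone H3 at lysine 9, was at 116, 164, 152 and 154 CPM with vehicle and 275, 295, 306 and 285 CPM with CIX, and it rose with a log2 fold change of 1.00 (standard error 0.11, adjusted p = 2.36e-04, 5 of 8 fits). Setd6 rose by 1.60 (1 of 8 fits), Setd5 by 0.78 (2 of 8 fits) and Kdm1a, named after its values were seen, by 0.87 (1 of 8 fits), whereas Prdm4 fell by 0.75 (0 of 8 fits).

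The response to CIX was set against that of 67NR cells with an interaction term over all 16 samples. The term passed 0.001 in 943 of the 11659 genes tested in 4T1 cells (8.09%), or 991 of the 12605 genes fitted in both lines (7.86%), and at 0.05 in 3500 (30%), with a response higher in 4T1 in 1870 (16%) and lower in 1630 (14%). Of the 45 lists, G2/M genes had the highest share with a different response, since 46 of 55 responded higher and 0 lower in 4T1 at 0.05, and 30 higher at 0.001, where the background is 5.1% higher and 2.98% lower. Their median log2 fold change was 0.55 in 4T1 and -0.42 in 67NR cells. Birc5 had 1.22 in 4T1 and -0.64 in 67NR cells, an interaction of 1.88 (adjusted p = 1.83e-06). Foxm1 had -0.71 in 67NR cells and an interaction of 1.56 (adjusted p = 4.19e-06). In DNA replication genes the median was -0.11 in 4T1 and -0.68 in 67NR cells, with 26 of 48 responding higher in 4T1, and for Prim1 the interaction was 2.02 (adjusted p = 4.74e-06).

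**Figure D4:**
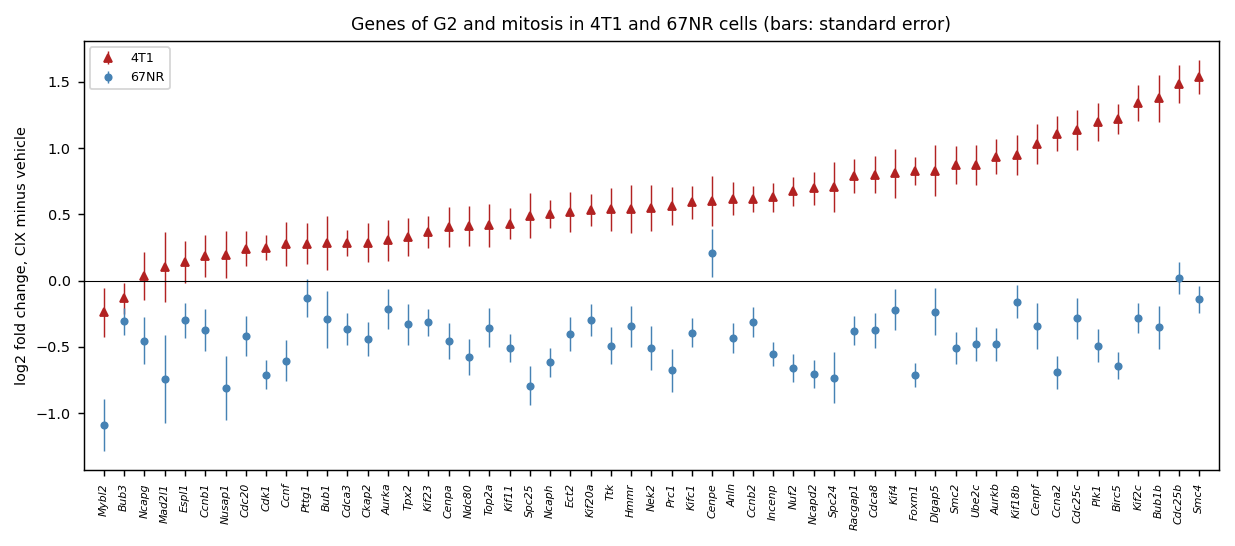
Log2 fold change (CIX minus vehicle, vertical axis) of each tested G2/M gene in 4T1 cells (triangles) and in 67NR cells (circles), with bars of 1 standard error and the genes ordered by their value in 4T1 cells. Of the 55 genes, 46 had a higher response in 4T1 cells at an interaction adjusted p below 0.05.

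Cholesterol genes differed the other way, with 16 of 25 responding lower in 4T1 and 0 higher, and medians of -0.49 in 4T1 and 0.59 in 67NR cells. V-ATPase subunits responded lower in 4T1 in 8 of 17 and higher in 0, with -0.68 (adjusted p = 8.90e-04) for Atp6v1a, and glycolytic genes lower in 8 of 20 and higher in 0, with -0.76 (adjusted p = 4.49e-04) for Slc2a1. Genes of fatty acid oxidation and PPAR targets responded higher in 4T1 in 10 of 25 and lower in 4, with 1.06 (adjusted p = 8.23e-06) for Acadl. Hmox1 had -1.03 in 4T1 and 1.66 in 67NR cells, an interaction of -2.68 (adjusted p = 8.23e-06). Amino acid response genes had medians of 0.57 and 0.53 in 4T1 and 67NR cells, and 3 of 28 responded higher and 2 lower in 4T1 at 0.05. Cytosolic ribosomal proteins had medians of 0.25 and 0.18, and 9 of 80 responded higher and 0 lower in 4T1. Itga5 rose by 0.94 in 4T1 and had 0.94 in 67NR cells, an interaction of 0.015 (adjusted p = 0.957), and for Asns the interaction was 0.23 (adjusted p = 0.613).

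**Figure D5:**
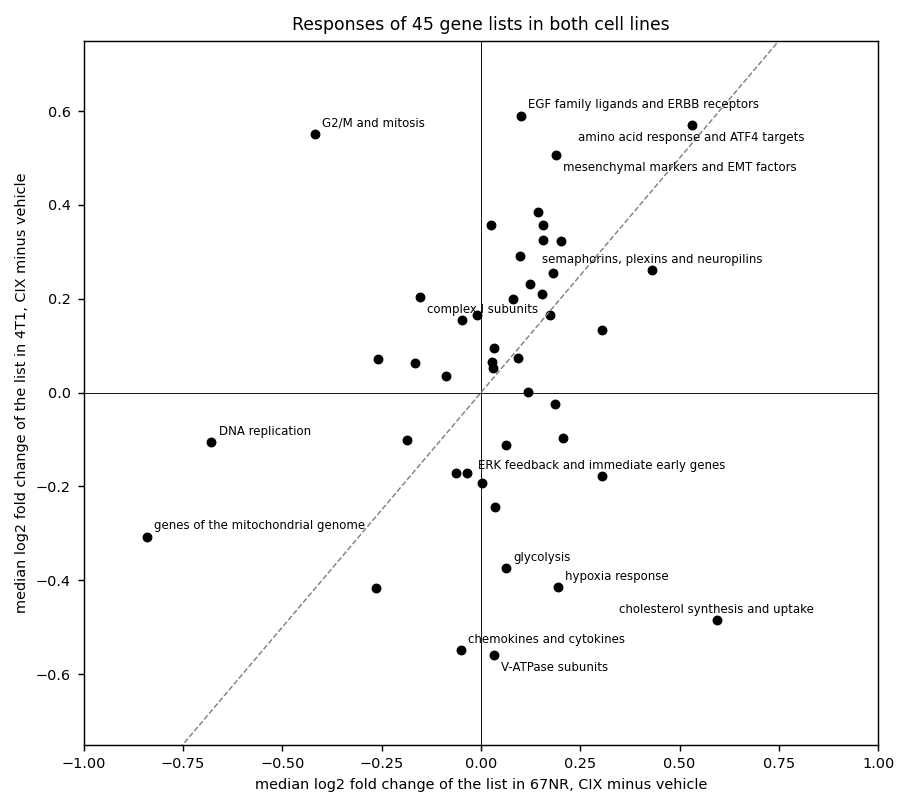
Each point is 1 of 45 gene lists, with its median log2 fold change (CIX minus vehicle) in 67NR cells on the horizontal axis and in 4T1 cells on the vertical axis, and a dashed line at equal medians. G2/M genes lie far above the line and cholesterol genes far below it, while the amino acid response lies close to it.

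The size of the response moved with the base composition of the transcripts. From the fifth of genes with the lowest GC content to the fifth with the highest, the median log2 fold change went from -0.151 to 0.14, the share that rose from 2.7% to 8.32% and the share that fell from 4.89% to 2.53%. Once the trend with GC was removed from each sample, an alternative chosen after seeing the data, the shares that rose were 4.67% and 5.53% and those that fell 3.21% and 5.11%. The medians of the lists after this step were 0.61 for G2/M genes, 0.61 for the amino acid response, -0.47 for V-ATPase subunits, -0.42 for ER chaperones and 0.23 for cytosolic ribosomal proteins. Besides the median of epithelial genes, which changed sign, medians that moved further than each of these 5 did were those of semaphorins, plexins and neuropilins (0.26 to 0.048), genes of the mitochondrial genome (-0.31 to -0.059), integrins (0.32 to 0.18), eicosanoid genes (0.29 to 0.16), Wnt and Notch genes (0.36 to 0.24), proteasome subunits (-0.17 to -0.079), glycolytic genes (-0.37 to -0.46) and TGF-beta genes (0.16 to 0.067). Medians that changed sign were those of epithelial genes (0.053 to -0.036), p53 targets (-0.024 to 0.013) and fatty acid synthesis (0.0019 to -0.010). The medians before this step also moved with single samples, with 0.054 without vehicle sample 3, -0.053 without CIX sample 4, 0.13 without CIX sample 8 and 0.10 without vehicle sample 11 for semaphorins, plexins and neuropilins, and 0.081 without samples 3 and 4. Other such medians were 0.20 without CIX sample 4 and 0.17 without vehicle sample 11 for integrins, -0.060 without vehicle sample 11 for eicosanoid genes, 0.21 without vehicle sample 3 for Wnt and Notch genes, and 0.088 without vehicle sample 3, 0.24 without vehicle sample 11 and 0.040 without CIX sample 12 for TGF-beta genes, which had 0.10 without samples 3 and 4. Of the called genes named in the text, 14 did not pass 0.001 once the trend was removed, namely Adgrl1, Axl, Ccl25, Cd68, Cp, Cxcl3, Erbb2, Mettl26, Myh9, Pcna, Tjp3, Twist1, Uqcr10 and Yars. A lost call is not a lost change, and log2 fold changes before and after this step were, for example, 3.15 and 2.96 (Adgrl1), 2.76 and 2.61 (Mettl26), 0.84 and 0.77 (Myh9), 0.89 and 0.80 (Axl), -1.47 and -1.33 (Cp) and -0.92 and -0.80 (Pcna).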

How the data were processed

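RNA of 4T1 and 67NR cells was sequenced from poly(A) libraries made with a strand-specific kit. Per the labels and the paper, the authors quantified transcripts with Salmon (version 0.12 in the submitters' processing notes) and summed them to genes with tximport, and they deposited estimated counts of 33072 genes for 16 samples. The paper names Ensembl GRCm38, whereas the submitters' notes list a human build, and the gene identifiers are those of mouse.

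Whether tximport scaled the deposited counts by transcript length is not given in the sources used here, and CPM and TPM were worked out as if it had not. The values were rounded to whole numbers, and TPM was worked out from them with the mean transcript length of each gene (GENCODE annotation of GRCm38, found for 32911 genes), and a gene was kept where its TPM reached 1 in at least 5 of the 8 samples. CIX was compared with vehicle by limma-voom with TMM normalization (limma 3.58.1, edgeR 4.0.16, R 4.3.3), with calls at a Benjamini-Hochberg adjusted p below 0.001 as in the paper's methods and at 0.05. The interaction was fitted over all 16 samples. Replicates of a group differed beyond counting noise, with a chi-square of at least 28.3 per gene. Each method was tested on simulated data, where DESeq2 made more false calls than limma-voom, and limma-voom missed small changes at 0.001 that it found at 0.05.

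The members and lists were chosen with earlier results of these data known. The text names anchor genes of each list, up to 3 called members per list and direction (2 of the highest expressed where none was called), and the 10 genes that rose and fell furthest. Some genes that this rule names are not reported here. Genes outside this rule were chosen after their values were seen, namely Cd68, Pdgfra and the other markers, Kif2c, Bub1b, Cdc25c, Ccna2, Cenpf, Aurkb, Ccnb2, Vldlr, Pdia6, Hadha, Uqcr10, Rpl22, Rpl22l1, Ccl25 and Kdm1a. Reads that could fall to another gene were gauged by the share of 31-base words found in transcripts of more than 1 gene. Shares not given above include 43.5% for Hspa8, 34.7% for Pkm, 33.2% for Ctsd, 32.3% for Krt8, 27.9% for Fdps and 27.7% for Ccnb1. Promoter windows are those of RefSeq (GRCm38.p6), found for 8723 of the 11659 genes tested. Other settings were DESeq2 1.42.0 (Wald test), the quasi-likelihood test of edgeR, other scalings and filters, sample quality weights, a common fit, leaving out samples, and a replicate block of consecutive sample numbers.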

Additional observations from a re-analysis of the deposited data

Results flagged for a closer look

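In 23 of 418 groups of 4 samples, 2 for each gene named, 1 sample lay so far from the nearest other that the gap passed Dixon's 95% critical value, where chance gives about 20.9. CIX sample 4 was such a sample on the high side for Mmp9 (149 CPM, others 28.6 to 47.2), Pdia6 (420.0 CPM, others 366 to 371), Cdkn1a (43.0 CPM, others 17.5 to 19.1), Fosl1 (124 CPM, others 56.3 to 67.2) and Abcb1a (23.2 CPM, others 0.551 to 0.882). CIX sample 4 was such a sample on the high side for Fdps (818 CPM, others 532 to 565) and Ccnd1 (906 CPM, others 261 to 369). CIX sample 4 was such a sample on the low side for Foxm1 (149 CPM, others 182 to 185), Myh9 (756 CPM, others 1005 to 1047), Vldlr (12.1 CPM, others 19.3 to 20.6) and Tra2a (55.5 CPM, others 64.9 to 66.8). Vehicle sample 3 stood apart on the high side for Snrpa1 (13.8 CPM, others 7.50 to 8.47), Kcnk2 (113 CPM, others 91.0 to 93.0), Id1 (30.5 CPM, others 21.0 to 22.1), Snai1 (13.4 CPM, others 12.4 to 12.4) and Fdps (721 CPM, others 462 to 479). Vehicle sample 3 stood apart on the low side for Ddit3 (32.8 CPM, others 49.5 to 51.8). CIX sample 12 stood apart on the high side for Mrpl45 (88.7 CPM, others 74.7 to 76.5), Ccn2 (13.5 CPM, others 8.61 to 9.37) and Myc (258 CPM, others 184 to 197). CIX sample 12 stood apart on the low side for Setd5 (149 CPM, others 160.0 to 161). CIX sample 16 stood apart on the high side for Elovl7 (33.7 CPM, others 22.1 to 23.8). CIX sample 16 stood apart on the low side for Map1lc3b (161 CPM, others 176 to 176).

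For 77 of the genes named, the response to CIX differed between 4T1 and 67NR cells at an interaction adjusted p below 0.001, and each value given here is the response in 4T1 minus that in 67NR cells on the log2 scale. Over all genes tested in 4T1 cells the share was 8.09%, and since many of the genes named were chosen for their change in 4T1 cells, the number says nothing about the genes named as a group. Among genes of the G2 phase and mitosis, the response was higher in 4T1 cells by 1.88 (Birc5), 1.82 (Ccna2), 1.75 (Bub1b), 1.70 (Plk1), 1.69 (Smc4), 1.64 (Kif2c), 1.56 (Foxm1), 1.48 (Cdc25b), 1.44 (Cdc25c), 1.43 (Aurkb), 1.39 (Cenpf), 0.97 (Cdk1) and 0.95 (Ccnb2). Among genes of replication, G1 to S phase, p53 and apoptosis, the response was higher in 4T1 cells by 2.02 (Prim1), 1.92 (Rbl1), 1.45 (Rbl2) and 1.21 (Bcl2). Lower responses in 4T1 cells were -0.95 (Mdm2). Among genes of lipid and eicosanoid metabolism, the response was higher in 4T1 cells by 1.69 (Acadvl), 1.41 (Lta4h), 1.06 (Acadl), 0.82 (Hadha) and 0.74 (Ech1). The response was lower in 4T1 cells for others, with -0.86 (Fads1) and -0.74 (Scd1). Among nuclear genes of mitochondrial ribosomes and the respiratory chain, the response was higher in 4T1 cells by 1.92 (Mrps31), 1.89 (Uqcrc2), 1.73 (Mrpl24), 1.62 (Uqcr10), 1.23 (Mrps5), 1.16 (Ndufs4) and 1.16 (Atp5d). Negative differences were -1.10 (Mrpl45). Among genes of translation and tRNA charging, the response was higher in 4T1 cells by 1.25 (Eif2b3), 1.01 (Yars), 0.74 (Vars) and 0.58 (Rps26). Below the response of 67NR cells lay -0.92 (Eif1ad). Among chaperones, proteasome, lysosome and glucose uptake, the response was higher in 4T1 cells by 1.31 (Hspb8) and 0.96 (Psmd3). The differences on the lower side were -1.58 (Psmb10), -1.37 (Syvn1), -0.77 (Dnaja1), -0.76 (Slc2a1) and -0.68 (Atp6v1a). Among oxidant, iron, heme and ABC transporter genes, the response was higher in 4T1 cells by 2.65 (Cpox), 2.33 (Nqo1), 1.36 (Abcd4), 1.34 (Ftl1), 0.85 (Slc25a28) and 0.75 (Taldo1). Lower in 4T1 cells were -2.68 (Hmox1). Among adhesion, cytoskeleton, mesenchymal and protease genes, the response was higher in 4T1 cells by 2.10 (Adam8), 1.37 (Sparc), 1.04 (Twist1), 0.90 (Enah), 0.74 (Timp2) and 0.66 (Vim). Responses below those of 67NR cells differed by -0.78 (Pdgfra). Among signalling, splicing, zinc finger and histone methylation genes, the response was higher in 4T1 cells by 4.45 (Ccn2), 2.23 (Snrpa1), 1.89 (Tgfbr3), 1.62 (Zfp637), 1.51 (Dusp1) and 1.03 (Axl). On the lower side stood -0.73 (Prdm4). Among the other genes named, the response was higher in 4T1 cells by 3.11 (Emc1), 3.09 (Bckdk), 3.06 (Lmnb2), 3.03 (Adamtsl4), 2.85 (Katnal1) and 2.65 (Acp6). Lower values in 4T1 cells were -4.50 (Cd209c), -3.79 (Csn3), -2.86 (Samd9l), -2.77 (Gbp2b) and -2.26 (Kcnk2). The 67NR samples enter these values only as the second part of the contrast, and the reasons for the differences were not tested.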

How the results depend on the processing

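Among the settings tried, the quasi-likelihood test of edgeR, DESeq2's size factors, library size alone and other filters kept the numbers of genes called within 1.5 times those reported. The Wald test of DESeq2 called 3096 genes (1630 higher, 1466 lower), sample quality weights 2523 (1394 and 1129), all 16 samples in a common fit 2720 (1490 and 1230) and a threshold of 0.05 4982 (2558 and 2424). When each sample was left out in turn, 269 to 975 genes were called, 158 to 573 of them higher and 111 to 402 lower, fewest without CIX sample 8 and most without CIX sample 4. Without vehicle sample 3 and CIX sample 4 together, an alternative chosen after seeing the data, 793 were called, 496 higher and 297 lower. Genes whose response differed between the lines numbered 1980 with DESeq2, 3704 at 0.05 and 652 to 1046 with single samples of either line left out, fewest without vehicle sample 7 and most without vehicle sample 3 of 4T1 cells. The cause of these differences was not tested.

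Of the 209 genes named, 9 lost their call with edgeR, 14 with the GC trend removed and 14 with library size alone, while DESeq2 called 19 more, lost 0 of those it gave an adjusted p and gave none for Abcb1a. The calls lost with edgeR were those of Abcb1a, Axl, Erbb2, Hadha, Mettl26, Rbl2, Rhoa, Setd6 and Uqcr10. Among the genes named, a change of sign occurred only in genes that were not called. The log2 fold changes of the opposite sign were -0.0083 (Cdkn1b) and 0.064 (Cxcl1) with edgeR. They came to -0.017 (Cdkn1b) and 0.058 (Cxcl1) with DESeq2. They came to -0.0045 (Cdkn1b) with DESeq2's size factors. They came to -0.057 (Cdkn1b), -0.027 (Plin2) and -0.0075 (Pkm) with library size only. They were -0.020 (Cdkn1b), -0.10 (Ndrg1), 0.046 (Hspa8), -0.0014 (Ccn1), -0.043 (Plin2) and -0.037 (Pkm) with samples 3 and 4 left out. They were -0.0025 (Cdkn1b) with the replicate block. They were -0.019 (Ndrg1), 0.023 (Hspa8), 0.16 (Smad7), -0.024 (Ccn1) and -0.029 (mt-Co2) with quality weights. They were 0.017 (Hspa8), 0.016 (Spry2), 0.015 (Lrp5), 0.035 (Smad7), 0.024 (Pdgfra), 0.0088 (Cxcl1) and 0.038 (Fscn1) with no filter. They were 0.011 (Cxcl1) and -0.031 (Pkm) with the GC trend removed. They were 0.0022 (Fscn1) with filterByExpr. When each sample was left out, the log2 fold changes of such genes ranged from -0.12 to 0.13 (Cdkn1b), -0.17 to 0.44 (Ndrg1), -0.16 to 0.080 (Hspa8), -0.18 to 0.050 (Spry2), -0.049 to 0.32 (Fasn), -0.18 to 0.093 (Smad7), -0.029 to 0.20 (Ccn1), -0.10 to 0.13 (Plin2), -0.078 to 0.021 (Pdgfra), -0.42 to 0.13 (Areg), -0.41 to 0.24 (Cxcl1), -0.088 to 0.035 (Fscn1), -0.032 to 0.11 (Pkm), -0.88 to 0.032 (Ptges), -0.12 to 0.32 (mt-Co2) and -0.015 to 0.68 (Ccnd1). 

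The labels number each sample once, so that no 2 groups share a number, and the numbers run through the 4 groups in the same order 4 times, without a statement that such a set shared a culture or a day. With sets of consecutive numbers (3 and 4, 7 and 8, 11 and 12, 15 and 16) as a replicate block, an alternative chosen after seeing the data, 1049 genes were called (615 higher, 434 lower), 800 of them also called without the block, and 973 differed between the lines. Deviations from the group means correlated across genes by 0.325, 0.0440, 0.282 and 0.155 within these sets, and vehicle samples 7 and 15 and CIX sample 8 correlated best with a sample of another set. With the block, 18 cholesterol genes were lower at 0.05 (6 without it) and 4 fell at 0.001, 15 replication genes (9) and 8 of ERK feedback (4) were lower and 7 integrins (4) higher at 0.05, and 3 V-ATPase subunits fell at 0.001 (0), where over all genes 26.1% were higher and 25.2% lower at 0.05 and 5.27% and 3.72% at 0.001. Of the genes named, 24 lost their call and 6 gained one. Calls were lost for Abcb1a, Ankrd37, Ccl25, Dusp1, Eif3f, Erbb2, Esrp1, Foxm1, Hadha, Plk2, Plxnb1, Prdm4, Rbl2, Rhoa, Rpl22, Rpl4, Setd6, Slc39a6, Timp2, Twist1, Yars, Zfp296, Zfp362 and Zfp668 and gained for Atp6v1a, Cdkn1a, Dbp, Hbegf, Hmox1 and Hspa1b. The levels rest on 22483670 to 29450629 estimated counts per sample, and 4 samples a group limit the precision.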
